A study of Mus musculus with 13 samples.

Results

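The TCRα repertoires of rescued Treg cells 7 months after Foxp3 restoration (n = 5) were compared with those 3 months after it (n = 4). These were 9 of the 13 samples of the series, and each was assigned to its time point and replicate by its title. All 9 came from male C57BL/6 mice of the genotype Foxp3LSL/y Cd4creERT2, in which a removable Thy1.1-STOP cassette kept Foxp3 silent until 4-OHT, an active form of tamoxifen, was given as 1 dose on postnatal day 14. The mice were 3.5 months old at the earlier and 7.5 months old at the later time point, so time since rescue and age cannot be told apart. The tamoxifen-activated Cre was made from the Cd4 locus and could therefore act in any cell that expressed Cd4 at the time of the dose. Cells that had switched from Thy1.1 to the GFP reporter were sorted from spleen and lymph nodes, which were pooled. Every sample carried the same alleles and treatment, and Treg cells that never lacked Foxp3 were not among the 13 samples. The labels do not say whether each sample was a separate mouse, so the p-values measure the spread between these samples.

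Treg cells restrain autoimmunity, and the transcription factor Foxp3 gives them that ability. Each T cell recognises its antigen through a TCR, whose α chain is made in the thymus by joining a V to a J segment, with bases trimmed and inserted at the junction. That junction, the CDR3, touches the bound peptide and is close to a private name for a clone, although simple junctions with few inserted bases are made again and again in different cells and animals. Because the dose of 4-OHT restored Foxp3 in a cohort of cells at 1 age, the comparison asked whether the clones of such a cohort changed in number, size, segment use, CDR3 make-up or sharing between the earlier and the later time.

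Rows with the same V gene, J gene and CDR3 nucleotides were treated as 1 clonotype, and only functional clonotypes, whose CDR3 had neither a stop codon nor a frameshift, were used. The 9 samples held 53810 functional clonotypes in all, and 48273 of them were distinct. Functional counts ran from 567642 to 882170 at 3 months and from 477052 to 580706 at 7 months. The earlier samples were therefore deeper on average, though the ranges overlapped, and several measures are also given at an equal depth of 477052 counts. Clonotypes of other receptors took 0.0320% of functional counts at 3 months and 0.0327% at 7 months. The invariant α chain of NKT cells took 0 to 344 counts per sample and that of MAIT cells took 106 counts in 1 sample, and Foxp3 itself cannot be checked in TCRα libraries.

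The clones that led each repertoire are shown as nucleotide sequences because the clone-size results below turn on them. Each line gives the sample, the V and J genes and then the CDR3 from 5′ to 3′, with capitals for bases that lie between the V-encoded and the J-encoded part.
3 months replicate 1, TRAV14-3 and TRAJ42: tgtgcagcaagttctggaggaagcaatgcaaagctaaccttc
3 months replicate 2, TRAV12-2 and TRAJ43: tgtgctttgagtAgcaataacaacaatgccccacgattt
3 months replicate 3, TRAV7-4 and TRAJ17: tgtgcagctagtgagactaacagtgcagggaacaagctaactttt
3 months replicate 4, TRAV12-2 and TRAJ27: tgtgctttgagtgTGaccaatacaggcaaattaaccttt
7 months replicate 1, TRAV4N-4 and TRAJ17: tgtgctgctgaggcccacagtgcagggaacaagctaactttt
7 months replicate 2, TRAV7-6 and TRAJ58: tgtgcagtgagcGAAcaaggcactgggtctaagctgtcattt
7 months replicate 3, TRAV3-1 and TRAJ15: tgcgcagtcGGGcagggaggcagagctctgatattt
7 months replicate 4, TRAV4-4-DV10 and TRAJ40: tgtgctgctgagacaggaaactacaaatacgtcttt
7 months replicate 5, TRAV15-2-DV6-2 and TRAJ37: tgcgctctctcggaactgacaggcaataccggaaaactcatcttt

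These 9 clonotypes used 9 different pairs of V and J genes and held 0 to 3 bases between their V and J parts. The V and J genes of the mouse α chain lie on chromosome 14 (GRCm38), where TRAV12-2, the V gene that led 3 months replicate 4, spans chr14:53616315-53616914 and its J gene, TRAJ27, spans chr14:54192303-54192361. The largest clonotype of all joined TRAV15-2-DV6-2 (chr14:53649404-53649994) to TRAJ37 (chr14:54181518-54181577) with 0 inserted bases. It took 24412 counts in 7 months replicate 5, which is 4.59% of functional counts (95% Wilson interval 4.54% to 4.65%, counting error only), and it was found in 5 other samples, with 15 counts in 1 of them and fewer than 3, the floor for detection, in 4. Of the 9 leaders, 3 were found in their own sample and in none of the other 8, namely those of 3 months replicate 3, 7 months replicate 1 and 7 months replicate 3. Those of 3 months replicate 4 and 7 months replicate 2 were found elsewhere with at most 2 counts. The most widely found was that of 7 months replicate 4, present in 7 of the 9 samples and with up to 471 counts outside the sample it led.

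The largest clonotype took 1.36%, 1.36%, 1.15% and 1.81% of functional counts in replicates 1 to 4 at 3 months. At 7 months it took 1.63%, 1.03%, 2.28%, 2.33% and 4.59% in replicates 1 to 5. Replicates 3, 4 and 5 at 7 months lay above every 3-month sample and replicate 2 lay below every one, and the means of 2.37% ± 1.35 (SD, n = 5) and 1.42% ± 0.277 (SD, n = 4) did not differ beyond the spread (exact permutation p = 0.175, two-sided). Clonotypes above 1% of counts numbered 5 at 3 months, with 1 or 2 in a sample, and 15 at 7 months, with 1 to 6 in a sample. The most were in 7 months replicate 4, with 5 such clonotypes, and replicate 5, with 6. The 15 clonotypes at 7 months came from 9 V families and 11 J genes, and 5 of them were found in 1 of the 9 samples only. Together, clonotypes above 1% held 1.67% ± 0.779 (SD, n = 4) of counts at 3 months against 5.38% ± 4.69 (SD, n = 5) at 7 months (exact permutation p = 0.206).

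Fewer clonotypes made up the bulk of the later repertoires in some samples but not in others. The smallest number of clonotypes that together held 50% of the counts was 688, 794, 860 and 737 at 3 months and 718, 736, 570, 433 and 361 at 7 months. Replicates 3, 4 and 5 at 7 months lay below all 3-month samples, while replicates 1 and 2 lay among them. The means were 770 ± 74.1 (SD, n = 4) and 564 ± 167 (SD, n = 5), a difference of -206 clonotypes (exact permutation p = 0.0714, Benjamini-Hochberg adjusted p = 0.548 over 18 measures). The 100 largest clonotypes held 20.1% ± 2.10 (SD, n = 4) of counts at 3 months against 24.7% ± 6.44 (SD, n = 5) at 7 months (exact permutation p = 0.278). The inverse Simpson index, which counts clonotypes after weighting them by size and falls when a few dominate, was 889, 1107, 1309 and 884 at 3 months. The 7-month values were 1022, 1197, 690, 392 and 246, and the difference of the means, -338, was smaller than the SD of 404 at 7 months (exact permutation p = 0.190). The Gini coefficient, which rises as sizes become more unequal, was 0.625 ± 0.0516 (SD, n = 4) and 0.654 ± 0.0525 (SD, n = 5), a difference of 0.0282 (exact permutation p = 0.508) that was 0.0429 at equal depth (exact permutation p = 0.183). Without 7 months replicate 5 the differences shrank, to -222 for the inverse Simpson index, 0.00940 for the Gini coefficient and 2.44 points for the 100 largest clonotypes. The SD of the inverse Simpson index was 203 at 3 months and 404 at 7 months, and whether the spread differed was not tested.

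**Figure D1:**
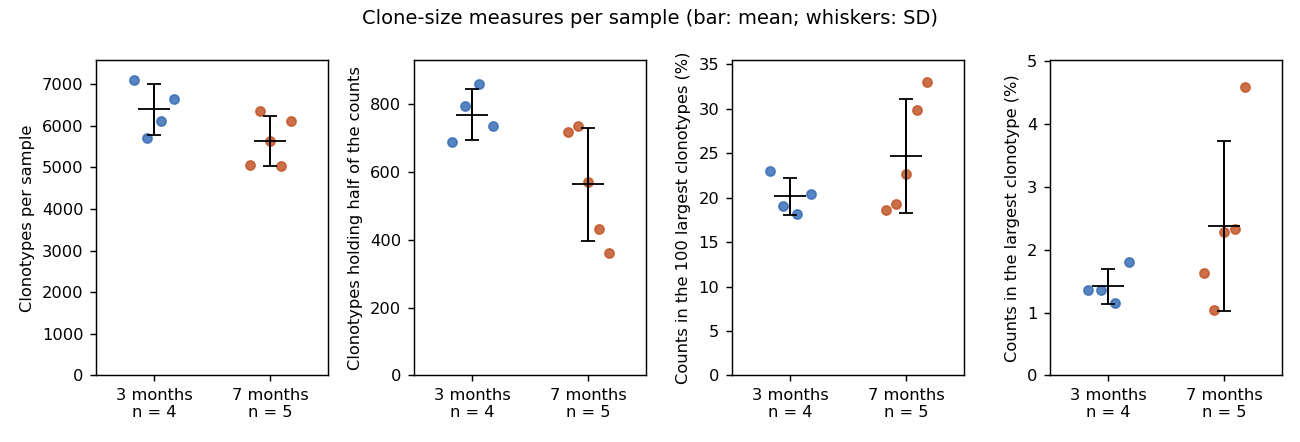
Clone-size measures of each sample (points), with the group mean (bar) and SD (whiskers) at 3 months (n = 4, blue) and 7 months (n = 5, orange). From left to right the vertical axes give the number of functional clonotypes, the number of clonotypes that together held 50% of counts, the percent of counts in the 100 largest clonotypes and the percent in the largest. In the last 3 panels 7 months replicates 1 and 2 sit among or next to the 3-month samples, and replicates 4 and 5 sit furthest from them.

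**Figure D2:**
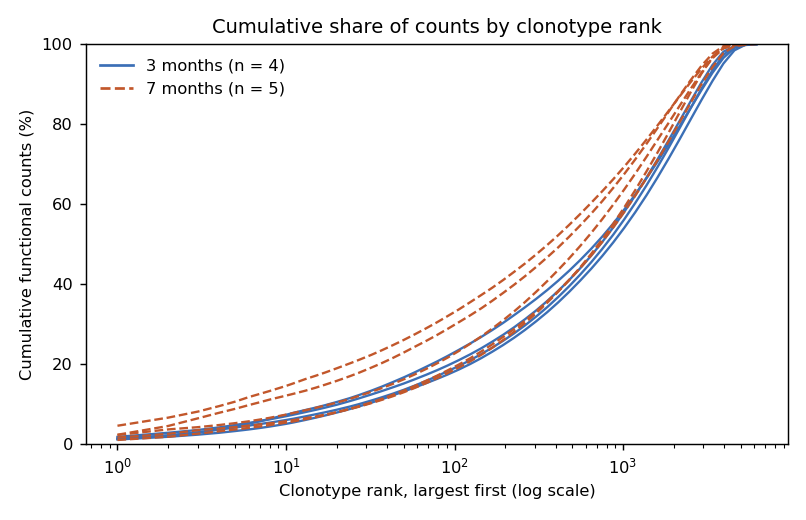
Cumulative percent of functional counts (vertical axis) against clonotype rank, largest first, on a log scale (horizontal axis), with 1 line per sample at 3 months (solid blue, n = 4) and 7 months (dashed orange, n = 5). At rank 100 the 3-month lines pass between 18.1% and 22.95% and the 7-month lines between 18.6% and 33.0%.

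The number of functional clonotypes was 7109, 5710, 6119 and 6657 at 3 months and 5067, 6354, 5625, 5040 and 6129 at 7 months. Means were 6399 ± 612 (SD, n = 4) and 5643 ± 599 (SD, n = 5), and the difference of -756 clonotypes (-11.8%) did not exceed the spread by the test (exact permutation p = 0.119, adjusted p = 0.556 over 8 measures). At equal depth the difference was -491 (exact permutation p = 0.222). Clonotypes seen with a single count made up 17.4% ± 8.37 (SD, n = 4) of clonotypes at 3 months against 17.2% ± 5.06 (SD, n = 5) at 7 months. With at least 2 counts required, the number was 5252 ± 249 (SD, n = 4) at 3 months against 4652 ± 246 (SD, n = 5) at 7 months, a difference of -600 (exact permutation p = 0.0238, not adjusted). A minimum of 10 counts gave -625 (exact permutation p = 0.0238, not adjusted). Both minimums were applied at unequal depth, with means of 705211 functional counts at 3 months and 519687 at 7 months. A fixed minimum therefore reached smaller shares in the earlier samples on average. Leaving out 1 sample at a time, the difference at 2 counts was -695 to -504, with an exact permutation p of 0.0179 to 0.0571. By size class, clonotypes of 0.01% to 0.1% of counts numbered 2981 ± 95.2 (SD, n = 4) at 3 months against 2605 ± 281 (SD, n = 5) at 7 months, and those of 0.1% to 1% numbered 82.5 ± 12.2 and 103 ± 12.3.

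Each clonotype was next weighed by its counts to see which V families held the repertoire. The exact tests of these shares were chosen after the values were seen. TRAV7, a family of 13 annotated genes and the most used one here, held 20.6%, 19.4%, 20.6% and 18.9% of functional counts in the 3-month samples. It held 18.04%, 18.5%, 17.6%, 17.8% and 14.9% in the 7-month samples. All 5 values at 7 months lay below all 4 at 3 months, and the means of 17.4% ± 1.44 (SD, n = 5) and 19.9% ± 0.863 (SD, n = 4) differed by -2.53 percentage points (exact permutation p = 0.0159, adjusted p = 0.101 over 19 families). TRAV3, with 8 annotated genes, went the other way. Its shares were 6.35%, 5.46%, 5.21% and 6.35% at 3 months and 6.74%, 7.38%, 7.87%, 7.01% and 6.91% at 7 months. All 5 later values lay above all 4 earlier ones, a difference of 1.34 percentage points (exact permutation p = 0.00794, the smallest this design allows, adjusted p = 0.101). Of the 19 families, 2 (10.5%) had groups that did not overlap, 3 (15.8%) had an exact permutation p under 0.05, and 0 had an adjusted p under 0.05. The third of these was TRAV19, a single gene at chr14:53845234-53845827, which held 0.766% ± 0.198 (SD, n = 4) and 1.07% ± 0.0825 (SD, n = 5) of counts (exact permutation p = 0.0159, adjusted p = 0.101). TRAV14, with 9 annotated genes, held 17.1% ± 1.203 (SD, n = 4) and 14.96% ± 1.58 (SD, n = 5) (exact permutation p = 0.0635).

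**Figure D3:**
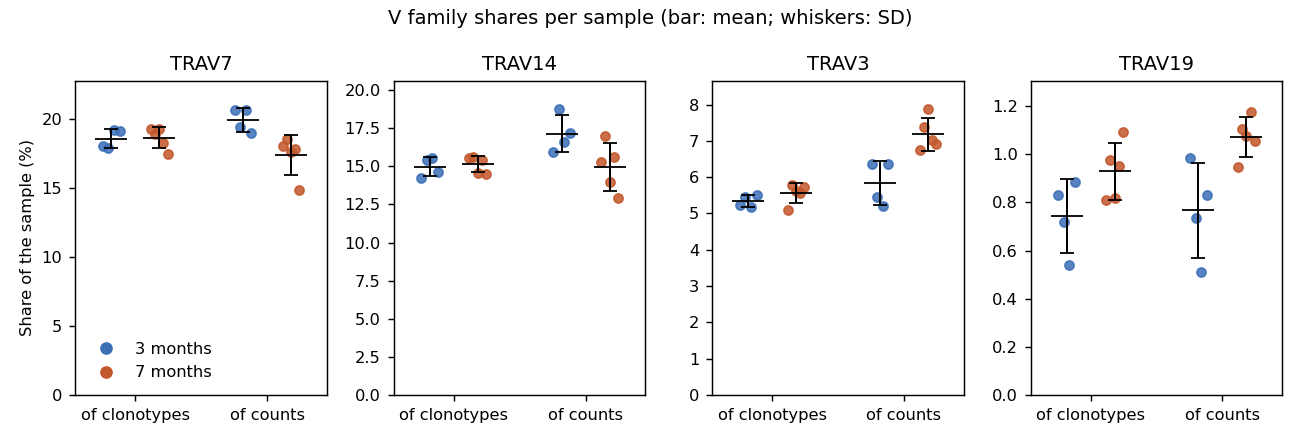
Percent of functional clonotypes and percent of functional counts (vertical axes) taken by 4 V families in each sample at 3 months (blue, n = 4) and 7 months (orange, n = 5), with mean (bar) and SD (whiskers). The groups overlap in every panel for clonotypes. For counts they do not overlap for TRAV7, where the highest 7-month sample is at 18.5%, and for TRAV3, where the lowest 7-month sample is at 6.74%.

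Counted once each, TRAV7 clonotypes made up 18.6% ± 0.713 (SD, n = 4) of clonotypes at 3 months against 18.6% ± 0.778 (SD, n = 5) at 7 months. TRAV3 made up 5.35% ± 0.165 (SD, n = 4) and 5.56% ± 0.273 (SD, n = 5). The ratio of the family's share of counts to its share of clonotypes was 1.07 ± 0.0640 (SD, n = 4) at 3 months against 0.932 ± 0.0516 (SD, n = 5) at 7 months for TRAV7, and 1.09 ± 0.108 against 1.29 ± 0.0736 for TRAV3. Without the 10 largest clonotypes of each sample the differences in share of counts were -1.303 points for TRAV7 and 1.12 points for TRAV3. Without the 100 largest they were -0.514 points and 0.513 points. The ratios and these differences rest on the same counts by which both families were picked out and are given as a description, without a test. In edgeR's quasi-likelihood test on summed counts over all 13 samples, 2 of 23 families (8.7%) had an adjusted p under 0.05, TRAV7 (log2 fold change -0.36, SE 0.087, adjusted p = 0.0184) and TRAV14 (log2 fold change -0.36, SE 0.095, adjusted p = 0.0184). TRAV3 was not called by this test (log2 fold change 0.13, SE 0.12, edgeR adjusted p = 0.840). With library totals in place of edgeR's TMM scaling TRAV7 and TRAV14 fell short too (log2 fold change -0.20, edgeR adjusted p = 0.304 for each). TMM alone moved the fold change of TRAV7 by -0.16. The calls of TRAV7 and TRAV14 were also lost without 3 months replicate 2 (edgeR adjusted p = 0.772 for TRAV7), without 7 months replicate 3 (0.0583) or without 7 months replicate 5 (0.506). With the 9 samples alone both were called (edgeR adjusted p = 0.0282 and 0.0369). DESeq2 called TRAV7 (DESeq2 adjusted p = 0.0431) but not TRAV14 (0.0580).

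The use of V families and J genes across clonotypes, each counted once, overlapped between the time points. Of 19 V families, 0 had an edgeR adjusted p under 0.05 (0% of those tested) and 1 (5.26%) had an unadjusted p under 0.05, while DESeq2 gave 0 and 0. That family was TRAV12, which made up 11.7% ± 0.474 (SD, n = 4) of clonotypes at 3 months against 11.1% ± 0.554 (SD, n = 5) at 7 months (log2 fold change -0.10, SE 0.046, edgeR adjusted p = 0.519). The other families named by the rule were TRAV15, at 1.28% and 1.12%, TRAV19, at 0.743% and 0.930%, and TRAV10, at 2.06% and 2.41%, with edgeR adjusted p = 0.519 each. Among the most used families, TRAV14 made up 14.97% and 15.14% of clonotypes, TRAV4 made up 10.0% and 9.63%, and TRAV6 made up 9.54% and 9.29% at 3 and 7 months. Of 43 J genes, 0 had an edgeR adjusted p under 0.05 and 2 (4.65%) had an unadjusted p under 0.05, and DESeq2 gave 0 and 1. These were TRAJ5 and TRAJ22, both less used at 7 months. TRAJ5 made up 0.942%, 0.753%, 0.932% and 1.13% of clonotypes at 3 months and 0.592%, 0.661%, 0.800%, 0.754% and 0.702% at 7 months (log2 fold change -0.44, SE 0.17, edgeR adjusted p = 0.488). TRAJ22 made up 4.18% ± 0.360 (SD, n = 4) and 3.82% ± 0.227 (SD, n = 5), with an edgeR adjusted p of 0.746. TRAJ44 and TRAJ43, the J genes with the smallest p among those higher at 7 months, went from 1.45% to 1.65% and from 2.22% to 2.44% (edgeR adjusted p = 0.801 each). The most used J genes were TRAJ15, with 5.96% and 5.51% of clonotypes, TRAJ21, with 5.72% and 5.28%, TRAJ31, with 5.39% and 5.51%, TRAJ23, with 4.51% and 4.59%, and TRAJ13, with 4.21% and 4.25% at 3 and 7 months.

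The pairing of V with J was compared in number, in evenness and pair by pair. A sample held 628 ± 22.3 (SD, n = 4) distinct pairs of V family and J gene at 3 months against 615 ± 20.6 (SD, n = 5) at 7 months (exact permutation p = 0.373). The difference of -13.45 pairs was -8.37 at equal depth and -5.20 without 3 months replicate 1. Mutual information, which is 0 when V and J are chosen independently, was 0.209 ± 0.0125 (SD, n = 4) and 0.220 ± 0.0131 (SD, n = 5) (exact permutation p = 0.238). With 5040 clonotypes drawn from each sample it differed by 0.000567 (exact permutation p = 0.865). Weighted by counts it was 0.361 ± 0.0236 (SD, n = 4) and 0.470 ± 0.135 (SD, n = 5), a difference of 0.109 (exact permutation p = 0.135). Of 283 pairs tested, 0 had an edgeR adjusted p under 0.05 and 10 (3.53%) had an unadjusted p under 0.05, and DESeq2 gave 0 and 4. In 3 pairs (1.06%) the groups did not overlap, with 1 (0.353%) lower and 2 (0.707%) higher in all 7-month samples. TRAV7 joined to TRAJ30 was the lower one, with 0.689%, 0.858%, 0.784% and 0.766% of clonotypes at 3 months and 0.651%, 0.645%, 0.622%, 0.476% and 0.506% at 7 months. All 5 later values were below all 4 earlier ones, with a log2 fold change of -0.43 (SE 0.16, edgeR adjusted p = 0.890). TRAV4 joined to TRAJ15 made up 0.494% ± 0.127 (SD, n = 4) and 0.331% ± 0.0696 (SD, n = 5), and 4 of the 5 later samples were below all earlier ones (log2 fold change -0.58, edgeR adjusted p = 0.890). In the other direction, TRAV7 joined to TRAJ32 went from 0.296% to 0.423% and TRAV6 joined to TRAJ13 went from 0.338% to 0.471% (edgeR adjusted p = 0.890 each).

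CDR3 length and the size of the junction were nearly equal at both time points. Mean length was 13.49 residues at both, and the difference of -0.00129 residues was smaller than the SD of 0.0241 at 3 months (exact permutation p = 0.952). Loops of 13 residues made up 30.6% ± 1.18 (SD, n = 4) and 30.4% ± 0.601 (SD, n = 5) of clonotypes, and loops of 14 residues made up 29.9% ± 0.979 and 30.3% ± 0.524. Clonotypes with 11 residues or fewer made up 5.47% ± 0.741 (SD, n = 4) at 3 months against 5.25% ± 0.0252 (SD, n = 5) at 7 months (exact permutation p = 0.563), and those with 16 or more made up 5.89% ± 0.261 and 5.72% ± 0.487 (exact permutation p = 0.635). A junction held 2.19 ± 0.0678 (SD, n = 4) inserted bases at 3 months against 2.18 ± 0.0478 (SD, n = 5) at 7 months (exact permutation p = 0.857). Junctions with 0 inserted bases made up 30.2% ± 1.18 and 31.1% ± 0.643 of clonotypes (exact permutation p = 0.183). The 100 largest clonotypes of a sample had fewer inserted bases than the rest in 8 of 9 samples, with means of 1.67 ± 0.254 against 2.19 ± 0.0650 (SD, n = 4) at 3 months and 1.86 ± 0.343 against 2.19 ± 0.0443 (SD, n = 5) at 7 months. That gap did not differ between the time points beyond the spread (0.198 bases, exact permutation p = 0.317).

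The amino-acid make-up of the CDR3 core, the loop without its first 3 and last 3 residues, gave the only one of 26 per-sample measures (3.85%) whose groups did not overlap. Mean core hydropathy on the Kyte-Doolittle scale, which is lower for more water-loving residues, was -1.480, -1.477, -1.478 and -1.479 at 3 months. At 7 months it was -1.489, -1.486, -1.509, -1.480 and -1.491, below every 3-month sample in all 5 cases, though replicate 4 differed from the lowest 3-month sample only in the fourth decimal. The difference was -0.0125, against an SD of 0.00129 at 3 months and 0.0110 at 7 months (exact permutation p = 0.0159, adjusted p = 0.286 over 18 measures). At equal depth it was -0.0118 (exact permutation p = 0.0476), with near neighbours removed -0.0111 (exact permutation p = 0.0317), with at least 10 counts per clonotype -0.0101 (exact permutation p = 0.111) and with clonotypes weighted by counts -0.00793 (exact permutation p = 0.873). By residue, from the group means of core residue percentages, more asparagine contributed -0.00848, more aspartate -0.00406 and less glutamine 0.00408. Over all residues such contributions sum to -0.0117, which is near but not equal to the difference of -0.0125. With the same use of J genes imposed on all samples the difference was 0.000306, and with J use alone allowed to vary it was -0.0125, again with all 5 later samples below all earlier ones. With V family, CDR3 length or inserted bases held equal instead, it was -0.0106, -0.0134 and -0.0125. The measure was picked out because its groups did not overlap, so these values are given as a description, without a test.

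Single residues and short motifs differed little. Asparagine made up 14.4% ± 0.0550 (SD, n = 4) of core residues at 3 months against 14.6% ± 0.152 (SD, n = 5) at 7 months, aspartate 2.75% ± 0.0291 and 2.87% ± 0.122, tryptophan 0.865% ± 0.0559 and 0.801% ± 0.0413, and proline 1.67% ± 0.0665 and 1.59% ± 0.0599. Of 20 amino acids, 0 had a limma adjusted p under 0.05 and 1 (5%) had an unadjusted p under 0.05, which was asparagine (limma adjusted p = 0.338). Of 564 runs of 3 core residues tested, 0 had an edgeR adjusted p under 0.05 and 34 (6.03%) had an unadjusted p under 0.05, and DESeq2 gave 0 and 11. The groups did not overlap for 3 of them (0.532%), 1 (0.177%) lower and 2 (0.355%) higher at 7 months. Gly-Asp-Ser was one of the higher, found in 0.324%, 0.263%, 0.278% and 0.361% of clonotypes at 3 months and in 0.395%, 0.551%, 0.444%, 0.397% and 0.587% at 7 months (log2 fold change 0.62, SE 0.22, edgeR adjusted p = 0.697). Tyr-Asn-Gly was found in 2.32% ± 0.314 (SD, n = 4) and 1.92% ± 0.168 (SD, n = 5) of clonotypes (log2 fold change -0.29, edgeR adjusted p = 0.697). All 1128 clonotypes with this run used TRAJ21, and 1009 of them (89.5%) carried the 1-base change described in the next paragraph, which turns a Val codon of that J gene into Gly. Val-Tyr-Gln went from 0.0604% to 0.149% and Ala-Gly-Ser from 1.04% to 0.775%, with the same adjusted p. With at least 10 counts per clonotype Tyr-Asn-Gly was the only run called among 430 (0.233%), at a log2 fold change of -0.81 (edgeR adjusted p = 0.000521). Of the 388 clonotypes behind this call, 385 (99.2%) carried that change. With near neighbours removed, and no minimum count, the run was found in 0.139% ± 0.0559 (SD, n = 4) and 0.124% ± 0.0267 (SD, n = 5) of clonotypes. Near neighbours also made up 49.1% of the 57 clonotypes with Val-Tyr-Gln, 9.30% of those with Gly-Asp-Ser and 8.13% of those with Ala-Gly-Ser. Tested on summed counts, 7 of 3054 runs (0.229%) were called by edgeR, and 46.2% to 97.9% of the counts of each came from 1 large clonotype.

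The J gene usage above included many pairs of CDR3s that differ by 1 base. After the data were seen, clonotypes whose CDR3 lay 1 base from a CDR3 at least 5 times as abundant in the same sample were counted and called near neighbours. There were 5888 of them among 53810 clonotypes (10.9%), and 60.2% carried G where the abundant partner carried T. They gathered in 4 J genes, with 41.1% of TRAJ15 clonotypes, 40.02% of TRAJ21, 34.3% of TRAJ13 and 33.2% of TRAJ35. In each of these the change sat mostly at a fixed place in the J-encoded end of the CDR3. For TRAJ21, TRAJ15 and TRAJ13 the pair whose neighbour had the most counts is shown, partner first, with the differing base in capitals.
TRAJ21 partner, 2029 counts in 3 months replicate 3: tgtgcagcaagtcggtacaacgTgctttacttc
TRAJ21 neighbour, 160 counts: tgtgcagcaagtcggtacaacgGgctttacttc
TRAJ15 partner, 11001 counts in 7 months replicate 3: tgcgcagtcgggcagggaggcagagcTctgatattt
TRAJ15 neighbour, 807 counts: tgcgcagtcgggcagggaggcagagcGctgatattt
TRAJ13 partner, 6559 counts in 7 months replicate 4: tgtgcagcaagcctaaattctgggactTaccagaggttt
TRAJ13 neighbour, 1116 counts: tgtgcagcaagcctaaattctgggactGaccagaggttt

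In all 3 pairs the end with T was found in the annotated J gene of GRCm38 and the end with G was not. The TRAJ15 partner is the largest clonotype of 7 months replicate 3, printed above. Neighbours of this kind had a median of 8.13% of the counts of their partner in TRAJ21, 8.00% in TRAJ15 and 15.9% in TRAJ13. The correction applied to these tables discards a sequence with 1 mismatch under a ratio of 0.05. Near neighbours also needed a partner at least 5 times as abundant, so these medians were held between those limits beforehand. Of the sequences with at least 200 counts that ended with T, 182 of 206 in TRAJ21, 209 of 230 in TRAJ15 and 117 of 117 in TRAJ13 had such a neighbour in the same sample.

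The share of counts with G at this place was lower in all 7-month samples for TRAJ21 and TRAJ15, while for TRAJ13 the groups overlapped. The p-values below are not adjusted, and the places were chosen after the data were seen. For TRAJ21 the share was 7.02%, 7.12%, 7.44% and 6.22% at 3 months and 5.61%, 5.68%, 5.92%, 5.14% and 5.77% at 7 months. All later samples lay below all earlier ones (difference -1.33 points, exact permutation p = 0.00794). Most Tyr-Asn-Gly clonotypes above carry this same change, so the TRAJ21 value is no separate evidence from that run. For TRAJ15 the means were 7.12% ± 0.644 (SD, n = 4) and 5.33% ± 0.475 (SD, n = 5), again without overlap (exact permutation p = 0.00794), and for TRAJ13 they were 15.4% ± 0.639 and 14.7% ± 0.261 (exact permutation p = 0.0873). TRAJ21 made up 5.72% ± 0.226 (SD, n = 4) of clonotypes at 3 months against 5.28% ± 0.216 (SD, n = 5) at 7 months (exact permutation p = 0.0397). With near neighbours removed it made up 3.72% ± 0.0837 and 3.66% ± 0.169 (exact permutation p = 0.532). Over the 9 samples TRAJ15 then went from first to rank 7 among J genes, TRAJ21 from rank 2 to rank 8 and TRAJ13 from rank 5 to rank 13, and TRAJ31 came first. Near neighbours as a whole made up 11% of clonotypes at each time point (exact permutation p = 0.921), and without them the difference in clonotype number was -672 (exact permutation p = 0.135). Depth was higher on average at 3 months, as given above, and its part in these values was not tested.

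**Figure D4:**
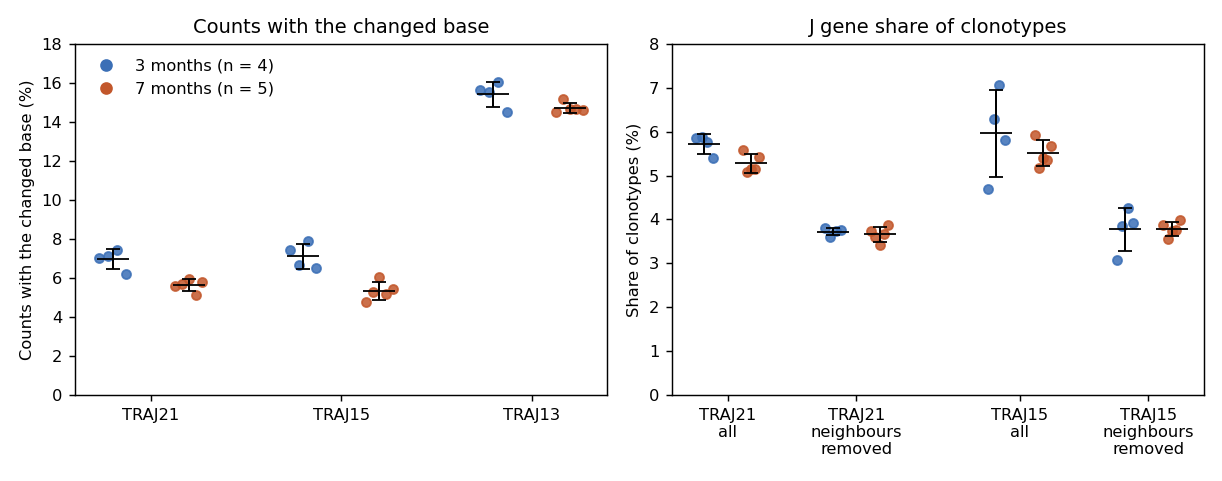
Left, percent of counts that carry the changed base at a fixed place in 3 J genes, per sample at 3 months (blue, n = 4) and 7 months (orange, n = 5), with mean (bar) and SD (whiskers). Right, percent of clonotypes with TRAJ21 or TRAJ15 before and after near neighbours were removed. The groups do not overlap on the left for TRAJ21 and TRAJ15, and on the right they overlap for both J genes before and after removal.

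Sharing was measured on CDR3 amino-acid sequences with the Jaccard index, the number shared by a pair of samples divided by the number found in either. The index was 9.85% ± 0.995 (SD, 6 pairs) among 3-month samples, 9.12% ± 0.307 (SD, 10 pairs) among 7-month samples and 9.42% ± 0.549 (SD, 20 pairs) across the time points. Sharing across the time points did not differ from sharing within them beyond the spread (difference 0.0291 points, exact permutation p = 0.849), and within 7 months it differed from within 3 months by -0.722 points (exact permutation p = 0.190), a value that was -0.150 without 3 months replicate 1 and -1.31 without 3 months replicate 3. With nucleotide clonotypes the index was 2.05%, 1.59% and 1.70%. The pair with the highest nucleotide index was 3 months replicates 1 and 2 (3.55%), and in 218 of their 440 shared clonotypes the counts differed at least 100-fold as shares of the sample. On average 49.99% ± 2.32 (SD, n = 4) of the CDR3s of a 3-month sample and 50.2% ± 0.951 (SD, n = 5) of those of a 7-month sample recurred in another of the 9 (exact permutation p = 0.881).

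Weighted by abundance, overlap was lower within 7 months than within 3 months by the Morisita-Horn index. The Morisita-Horn index, which is 100% for repertoires with equal shares, was 14.3% ± 2.32 (SD, 6 pairs, range 11.5% to 17.5%) within 3 months and 6.83% ± 2.22 (SD, 10 pairs, range 3.41% to 10.96%) within 7 months. The difference of -7.43 points had an exact permutation p of 0.0317, not adjusted, when samples were permuted. Without the 10 largest clonotypes of each sample it was -5.87 points (exact permutation p = 0.0635), and leaving out 1 sample at a time gave -8.71 to -6.24 points, with an exact permutation p under 0.05 in 1 of 9 cases. The index divides the chance that a count from each of a pair of samples carries the same CDR3 by the chance within a sample. The chance across samples was 1.55 per 10000 at 3 months and 1.28 at 7 months (exact permutation p = 0.492), and the mean chance within a sample was 10.95 and 20.6 per 10000 (exact permutation p = 0.230).

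**Figure D5:**
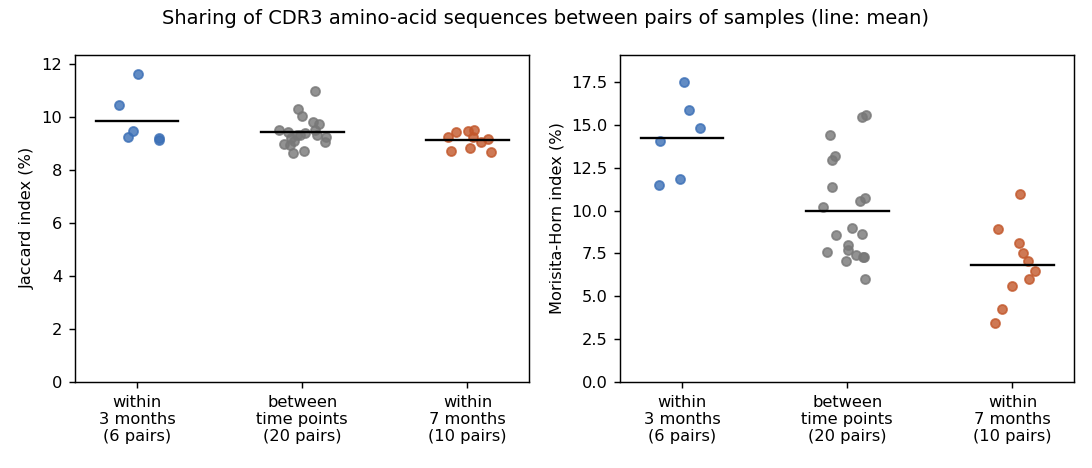
Jaccard index (left) and Morisita-Horn index (right), in percent, of CDR3 amino-acid sequences for every pair of samples (points), with means as lines, for pairs within 3 months (6), between time points (20) and within 7 months (10). Pairs share samples and are not independent. On the left the 3 sets overlap, and on the right every pair within 7 months is below every pair within 3 months.

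Most CDR3s were private to a sample. Of 31813 CDR3s at the amino-acid level, 74.9% occurred in 1 of the 9 samples, 5714 were found at both time points, and 90 were found in all 9. Of 48273 nucleotide clonotypes, 91.0% were found in 1 sample and 0 in all 9. All 4 samples at 3 months shared 275 CDR3s and all 5 at 7 months shared 178, and any 4 of the 7-month samples shared 219 to 255. Private CDR3s had 2.92 inserted bases on average at either time point, those shared with another sample had 1.56 at 3 months and 1.55 at 7 months, and the 90 found everywhere had 0.530 and 0.549. The 90 also had shorter loops, at 12.8 residues against 13.7 for private CDR3s. Of the 90, 39 belonged mainly to TRAV14, 24 to TRAV7 and 12 to TRAV4, and by J gene TRAJ22 and TRAJ31 led with 10 each. Together they held 6.45% ± 0.416 (SD, n = 4) of counts at 3 months against 5.89% ± 1.11 (SD, n = 5) at 7 months (exact permutation p = 0.365).

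The most abundant CDR3s found in all 9 samples are labelled A to E and shown by the nucleotide sequence with the highest summed share over the 9 samples, as examples of junctions with few inserted bases.
Public CDR3 A, TRAV4N-4 and TRAJ12: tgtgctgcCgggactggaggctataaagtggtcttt
Public CDR3 B, TRAV14D-1 and TRAJ22: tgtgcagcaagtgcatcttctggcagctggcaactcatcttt
Public CDR3 C, TRAV7D-2 and TRAJ12: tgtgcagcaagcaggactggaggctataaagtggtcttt
Public CDR3 D, TRAV4N-4 and TRAJ12: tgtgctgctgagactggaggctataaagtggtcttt
Public CDR3 E, TRAV14D-1 and TRAJ13: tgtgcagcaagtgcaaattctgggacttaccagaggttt

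Of these 5, 4 were encoded without inserted bases and 3 used TRAJ12 (chr14:54206553-54206610). Of the 5, public CDR3 B varied least between samples at either time point (SD 0.0298 at 3 months and 0.0544 at 7 months). Its shares of counts were 0.274%, 0.243%, 0.204% and 0.257% at 3 months and 0.257%, 0.250%, 0.182%, 0.302% and 0.173% at 7 months, made up of 12 nucleotide sequences over the 9 samples. Public CDR3 A took 0.392%, 0.515%, 0.226% and 0.930% at 3 months and 0.121%, 0.434%, 0.0897%, 0.443% and 2.04% at 7 months. In 7 months replicate 5 nearly all of it was 1 nucleotide clonotype with 10758 counts, one of those above 1%. Public CDR3 D took 0.274% ± 0.168 (SD, n = 4) and 0.0989% ± 0.0852 (SD, n = 5), with overlapping groups (exact permutation p = 0.0635). Public CDR3 E took 0.224% ± 0.116 and 0.117% ± 0.0780 (exact permutation p = 0.143), and public CDR3 C took 0.287% ± 0.401 and 0.161% ± 0.171 (exact permutation p = 0.627).

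Of 48273 nucleotide clonotypes, 841 (1.74%) were found in 2 or more samples at 3 months and in none at 7 months. In the other direction there were 889 (1.84%). Sequences found in every sample of 1 time point and in none of the other were few. In no case was a CDR3 found in all 5 samples at 7 months and in none at 3 months, and 5 CDR3s were found in all 4 samples at 3 months and in none at 7 months. Among nucleotide clonotypes of the α chain, 1 of TRAV7-5 and TRAJ37 was found in 4 samples at 7 months with at most 350 counts and in 0 at 3 months. Another, of TRAV13-2 and TRAJ31, was found in 3, with 4351 counts in replicate 4 and 1 in each of the others, so that it was above the floor of 3 counts in 1 sample. In the other direction, 1 of TRAV14D-1 and TRAJ34 was found in all 4 samples at 3 months with at most 268 counts, as was 1 of TRAV4-4-DV10 and TRAJ42 with at most 51 and, in 1 sample, fewer than 3. Another, of TRAV3D-3 and TRAJ9, was found in 3 of the 4, with 4387 counts in replicate 2 and 1 in each of the others, and it too was above the floor in 1 sample. Carry-over between libraries was not tested for these clonotypes. At 3 counts the floor for detection was 0.000340% to 0.000629% of functional counts.
TRAV7-5 and TRAJ37, 7 months only: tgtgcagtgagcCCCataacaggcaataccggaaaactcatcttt
TRAV14D-1 and TRAJ34, 3 months only: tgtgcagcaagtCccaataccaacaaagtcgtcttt

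Single CDR3 amino-acid sequences were also tested for abundance. Of 8206 that passed edgeR's filter on low counts, 2112 (25.7%) had an unadjusted edgeR p under 0.05. Only 6 (0.0731%) had an adjusted p under 0.05, 2 higher (0.0244%) and 4 lower (0.0487%) at 7 months. The higher ones were the CDR3 that led 7 months replicate 5 (edgeR adjusted p = 0.00105) and 1 of TRAV4-4-DV10 and TRAJ49 in 7 months replicate 4 (0.0252). The lower ones were the CDR3 that led 3 months replicate 4 (0.00848), another of the same sample (0.0252), and 2 of 3 months replicate 1 (0.0252 and 0.0417). In each case 95.7% to 99.9% of the counts over the 9 samples came from 1 sample, so each call rested on a clone of that sample. The CDR3 with TRAJ49, for instance, took 10499 counts in its sample and at most 139 in any other of the 9. Without the sample that held it, the edgeR adjusted p of each was between 0.279 and 0.994. With the 9 samples alone edgeR called 0 of 1348 (30 at an unadjusted p under 0.05). DESeq2 called 290 of 4441 (6.53%), 231 higher and 59 lower, of which 268 were absent from all samples of a time point, and it shared 0 with edgeR because it gave no adjusted p for the 6.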

How the data were processed

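The samples of the comparison were TCRα libraries of rescued Treg cells made by 5′RACE and read on an Illumina MiSeq in 3 runs, which were joined. The authors extracted clonotypes with MiXCR, and converted and corrected them with VDJtools, which discards a sequence with up to 2 mismatches to a parent when its relative abundance is under 0.05 raised to the number of mismatches. The deposited tables give, for each clonotype, a count and its fraction of the sample. Counts were used here and fractions were recomputed after filtering. Whether a count is a read or a molecule is not given in the sources used here. The annotation of segments was GENCODE M21 (GRCm38), in which 148 of 148 segments were found.

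Functional clonotypes were kept, giving 477052 to 882170 counts per sample, so that 3 counts, the detection floor, were 0.000340% to 0.000629%. Floors and intervals cover counting error only. Samples were grouped by title. Non-functional rows took 6.72% of counts at 3 months and 6.79% at 7 months and were left out. Per-sample measures were compared with two-sided exact permutation tests over all splits of 4 and 5 samples, with Benjamini-Hochberg adjustment over 8 main and 18 other measures. V families, J genes, V-J pairs, 3-residue runs and CDR3 sequences were tested with edgeR's quasi-likelihood test, fitted on all 13 samples, amino acids with limma, and DESeq2 was an alternative. Adjusted p-values are Benjamini-Hochberg over all features tested, with a threshold of 0.05. Named features were up to 10 past the threshold per kind, or otherwise the 2 higher and 2 lower with the smallest p, with the 5 most used V families and J genes, the largest clonotype of each sample, the 5 most abundant CDR3s found in all 9 samples, and the 3 clonotypes found in the most samples of either time point alone. The members and lists were chosen with earlier results of these data known.

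Alternatives were equal depth, equal clonotype number, minimum counts, weighting by counts, nucleotide clonotypes, non-functional rows kept, removal of shared clonotypes with a 100-fold lower share (carry-over), other scaling and filters, a replicate block and leaving out each sample. Removal of near neighbours and of the 10 or 100 largest clonotypes, and the exact tests of V family shares of counts, were chosen after seeing the data. Scripts were tested on simulated data. Python 3.11.15, numpy 2.4.6, pandas 2.3.3, scipy 1.17.1, matplotlib 3.10.9, R 4.3.3, edgeR 4.0.16, DESeq2 1.42.0 and limma 3.58.1 were used.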

Additional observations from a re-analysis of the deposited data

Results flagged for a closer look

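Over 130 groups of 4 or 5 values, 7 had a highest or lowest sample far from the rest. These are about as many as the 5% that chance gives, and they are listed as a description. Counts in clonotypes above 1% were 2.83% in 3 months replicate 4, against 1.36% in the next sample. Counts in clonotypes of 0.01% to 0.1% were 66.1% in 3 months replicate 1, against 72.8% in the next. TRAV10 made up 2.65% of clonotypes in 3 months replicate 3, with 1.93% in the next, and 2.01% in 7 months replicate 2, the lowest of its group, with 2.45% in the next. Public CDR3 A took 2.04% of counts in 7 months replicate 5, against 0.443% in the next 7-month sample, and public CDR3 C took 0.885% in 3 months replicate 1, against 0.136% in the next 3-month sample. TRAV7 held 14.9% of counts in 7 months replicate 5, against 17.6% in the next.

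The α-chain libraries also held rows of the TCR δ chain, which were not compared on their own. The functional ones are within the clonotype totals, among the 3 to 12 clonotypes of other receptors in a sample. Functional or not, δ rows took 146 to 492 counts per sample at 3 months (median 173) and 91 to 333 at 7 months (median 147), above the floor of 3 counts in every sample.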

How the results depend on the processing

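Among the alternatives listed at the start, 244 of 278 kept the direction and the side of the threshold, which for per-sample measures and overlaps was here an exact p of 0.05 without adjustment. The fall in clonotype number had such a p under 0.05 with at least 2 counts (-600.05) or 10 counts (-625), both at unequal depth. Overlap within 7 months minus within 3 months had one with the Morisita-Horn index (-7.43). The difference in mean CDR3 length, -0.00129 residues, changed sign at equal depth (0.00475), at 10 counts (0.00177), with carry-over removed (0.00363) and weighted by counts (0.0222), and without 1 sample it ran from -0.00954 to 0.00877. That in inserted bases, -0.00636, changed sign at equal depth (0.0126) and weighted by counts (0.0188), and without 1 sample it ran from -0.0375 to 0.0151. Overlap between minus within time points, 0.0291, was -0.0594 for nucleotide clonotypes, and without 1 sample it ran from -0.177 to 0.304. Summed counts in place of clonotypes gave 2 calls for V families and 7 for 3-residue runs, where 46.2% to 97.9% of the counts of each run came from 1 clonotype, and 10 counts gave 1 call for such runs. The count of 6 CDR3 sequences called by edgeR became 290 with DESeq2, 1 with near neighbours removed, and 0 without a filter (1646 unadjusted), with the 9 samples alone (30 unadjusted) or with nucleotide clonotypes. Without 1 sample it was 1 to 6. The lowest came without 3 months replicate 4, 2 came without 7 months replicate 1 or 4, and 3 without 7 months replicate 3 or 5. The causes were not tested. Without 1 sample the difference in Gini ran from 0.00940 to 0.0462, the 100 largest from 2.44 to 6.05, inverse Simpson from -460 to -222 and V-J pairs from -22.9 to -5.20, and overlap within 7 months minus within 3 months from -1.31 to -0.150, with no exact permutation p under 0.05. Core hydropathy without 1 sample was -0.0152 to -0.00789 (exact permutation p = 0.0286 to 0.0714). Of the alternatives chosen after seeing the data, 90 of 122 kept their side.

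Replicate numbers were not treated as pairing the samples, since not every correlation of same-numbered deviations was above 0.1 (V families 0.0963 to 0.530, J genes -0.316 to 0.239, V-J pairs -0.145 to 0.0453, runs -0.0834 to 0.0260, residues -0.743 to 0.705). For residues they were 0.614, 0.659 and 0.705 in pairs 1 to 3 and -0.743 in pair 4. With 4 pairs this rule cannot decide whether the samples were paired. The replicate block on per-sample measures uses 4 pairs and drops 7 months replicate 5, so these values equal those without that sample. With the block the difference was -877 clonotypes, -222 for the inverse Simpson index, 0.00940 for Gini, 2.44 points for the 100 largest, -0.00592 residues, -0.0104 inserted bases, -18.5 V-J pairs, 0.0149 mutual information, and, with labels swapped within numbers over all 9 samples, 0.0291 and -0.722 for the overlaps. Core hydropathy was -0.0126, TRAV7 -1.90, TRAV3 1.41 and the Morisita-Horn index -7.43, each with an exact p of 0.125. For the first 3 that is the smallest 16 arrangements allow. For the Morisita-Horn index a smaller p was possible, since 7 months replicate 5 stayed in its group in every arrangement. Blocked fits called 0 CDR3 sequences and, with each clonotype counted once, 0 V families, J genes, V-J pairs, runs or residues. On summed counts the blocked edgeR fit called 3 of 23 V families. TRAV7 (edgeR adjusted p = 0.0335) and TRAV14 (0.0338) were among them.

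Depth limits the rare clonotypes, since the earlier samples were deeper on average. Clonotypes seen with a single count varied from 9.45% to 24.8% of clonotypes between samples. Age and time since rescue cannot be told apart, no sorting or library batch is named in the labels, and separate mice are not stated.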

Other observations

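TRAJ17 was the J gene of 4 of the 20 clonotypes above 1% of counts, 1 at 3 months and 3 at 7 months, and these were joined to V genes of 3 families, TRAV7, TRAV4 and TRAV6. TRAJ17 was the J gene of 2.81% ± 0.284 (SD, n = 4) of all clonotypes at 3 months against 2.86% ± 0.260 (SD, n = 5) at 7 months. The 4 clonotypes were picked out after their values were seen and no test was made. A row of the immunoglobulin κ chain, IGKV15-103 joined to IGKJ1, was listed in 4 samples at 7 months, in each below the floor of 3 counts. Across time points not compared here, 3 months replicate 4 shared 6.24% of nucleotide clonotypes with 5 months replicate 1 and 5.59% with 1.5 months replicate 1, above the 3.55% that was the highest among pairs of the 9 samples. In 348 of the 707 clonotypes shared by the first pair, and in 272 of the 776 shared by the other, the shares differed at least 100-fold.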
